A study of Mus musculus with 18 samples.

Results

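The data described here are the transcript counts of 10 genes for transcription factors that act in stratifying epithelia: Trp63, Grhl1, Grhl2, Grhl3, Klf4, Klf5, Ovol1, Ovol2, Tfap2a and Tfap2c. They were picked by symbol as known regulators, with earlier results of these data known, and each of the 10 was found once among the 24376 genes of the deposited count table. RNA was sequenced from the hand-dissected epithelium of mouse mammary buds 1 to 3, each library being a pool of 2 to 3 embryos of the same litter and genotype, with at least 3 litters in all. The study asked what Wnt/β-catenin signalling does in the embryonic mammary gland. Stabilized samples were Krt14Cre/wt; Ctnn1bflox3/wt embryos, in which the Krt14 promoter drives Cre in epithelial cells and Cre removes exon 3 of the flox3 allele of the β-catenin gene (Ctnnb1), leaving a wild-type allele and an allele for stabilized β-catenin. Controls were Krt14wt/wt; Ctnn1bflox3/wt littermates, which carry the same unrecombined flox3 allele and no Cre, so Cre itself and stabilized β-catenin cannot be told apart. All embryos were of a mixed C57Bl/6 and NMRI strain. At E13.5 there were 4 stabilized and 4 control libraries from embryos of both sexes, and at E16.5 there were 5 stabilized and 5 control libraries from females, so stage and the makeup by sex cannot be told apart.

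The mammary bud is an ingrowth of the same surface ectoderm that becomes the epidermis. In the epidermis, p63 (Trp63) maintains the basal layer and stratification. Factors of the Grhl, Klf and Ovol families act with it as cells leave that layer, join by desmosomes and tight junctions and build the barrier, and AP-2 factors (Tfap2a, Tfap2c) act from the surface ectoderm stage onwards. Mice without p63 form neither a stratified epidermis nor mammary buds.

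Libraries held 26768810 to 36922108 counts. Levels are given as CPM (edgeR's count unit, scaled to the TMM-adjusted library total). Errors of CPM are SD over the 4 libraries of a group at E13.5 and the 5 of a group at E16.5, and errors of log2 fold changes are SE. Genes were tested with edgeR over 17269 genes, called at an adjusted p under 0.05, and the words higher, lower, rose and fell refer to such calls. Ctnnb1 had 2758 to 3496 CPM in stabilized libraries and 2421 to 3156 CPM in controls at E13.5 (log2 fold change 0.28, edgeR adjusted p = 0.307). The E16.5 range was 1693 to 3211 CPM in stabilized libraries and 1112 to 1395 CPM in controls (0.87, edgeR adjusted p = 9.02e-05), and gene counts do not show the loss of exon 3. A pair of libraries stood apart. E16.5 stabilized replicate 1 held 28200 CPM summed over 26 genes of the suprabasal and cornified layers, against 3390 to 4490 CPM in the other 4 stabilized libraries and 95.0 to 319 CPM in controls, and it was the highest of its group for 9 of the 10 regulators. E13.5 control replicate 3 had 4.18% mitochondrially encoded counts, against 2.18 to 2.50% in the other 3 controls, and 649 CPM summed over 10 mesenchyme markers, against 93.0 to 278 CPM. Results that rest on these libraries are given without them as well.

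At E13.5, 5 of the 10 regulators were higher in stabilized buds (Grhl1, Grhl3, Klf4, Klf5 and Ovol2) and 0 were lower, where 9.58% of all tested genes were higher and 5.29% lower. At E16.5, 7 were higher (Trp63, Grhl1, Grhl3, Klf4, Klf5, Ovol1 and Tfap2a) and 2 were lower (Grhl2 and Tfap2c), where 22.2% of all tested genes were higher and 19.4% lower. The median log2 fold change of the 10 was 0.85 at E13.5 and 1.44 at E16.5, beside 0.01 and 0.10 over all tested genes. The count at E13.5 depended on single libraries and lay between 1 and 6 when each of the 18 libraries was left out in turn. It was 1 without stabilized replicate 3, the highest of its group for 9 regulators, 2 without control replicate 4, and 3 when control replicate 1, 2 or 3 or stabilized replicate 1 or 4 was left out. Without both libraries that stood apart it was 6, with Ovol1 the sixth. The counts at E16.5 were the same, 7 and 2, in all 18 of these fits and without both libraries that stood apart. Each library is bulk RNA of dissected bud epithelium, so more transcripts per cell and more cells that hold them cannot be told apart.

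**Figure D1:**
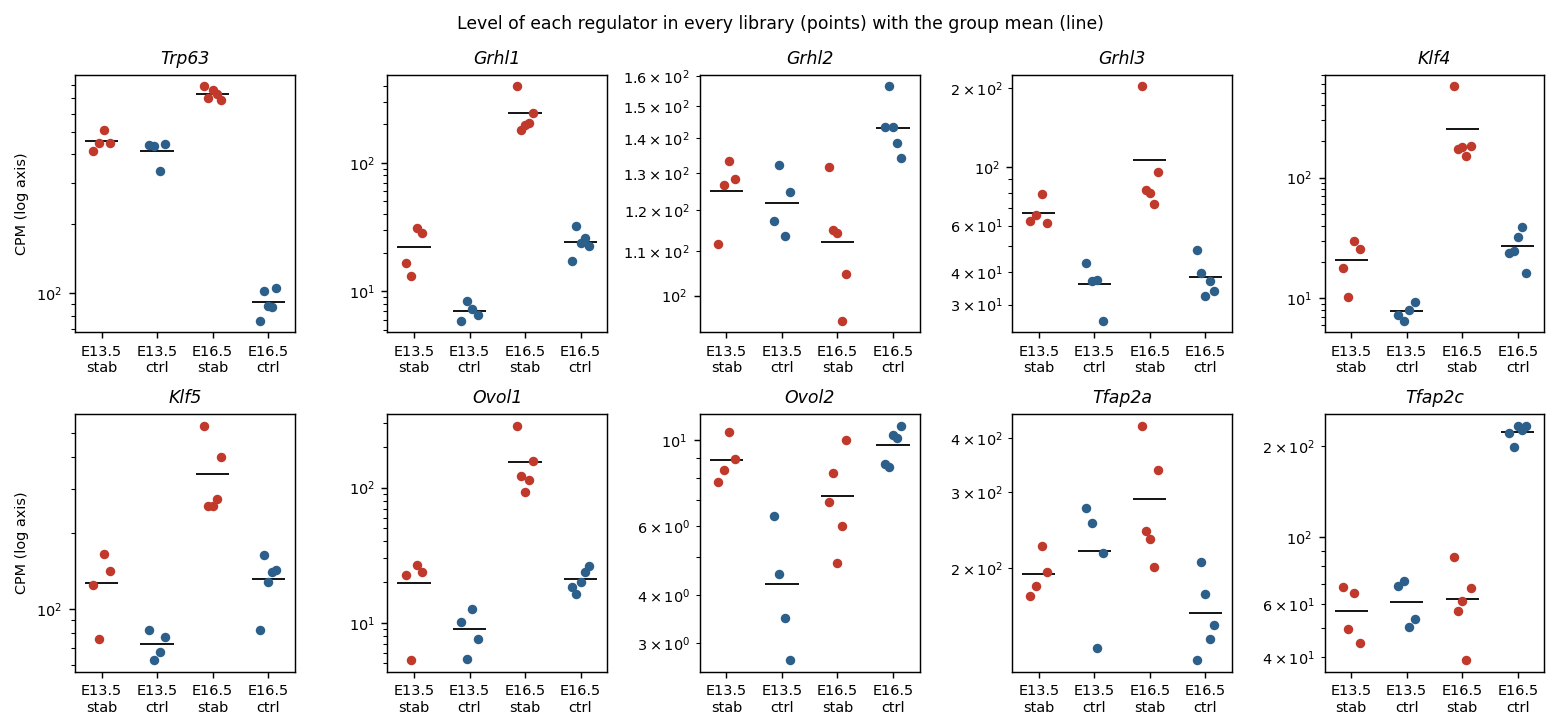
Levels of the 10 regulators in every library, as CPM on a log axis, 1 panel per gene with its own axis range. Points are libraries (red stabilized, blue control), lines are group means, and the groups run E13.5 stabilized, E13.5 control, E16.5 stabilized and E16.5 control. The 5 E16.5 stabilized libraries lie above the 5 controls for Trp63, Grhl1, Grhl3, Klf4, Klf5 and Ovol1, and below them for Grhl2 and Tfap2c.

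Trp63 (ENSMUSG00000022510, GRCm38/mm10 chromosome 16, 25683763 to 25892102, plus strand) encodes p63, whose long and short N-terminal forms are not separated by a gene count. E13.5 levels of Trp63 were 415, 447, 512 and 448 CPM in stabilized libraries and 439.6, 435, 338 and 444 CPM in controls. The groups overlapped, with control replicate 3 below all other libraries of that stage, and the difference did not pass the test (log2 fold change 0.14 ± 0.123, edgeR adjusted p = 0.557). E16.5 levels of Trp63 were 788, 704, 756, 728 and 684 CPM in stabilized libraries and 76.2, 103, 88.4, 87.4 and 106 CPM in controls. Every stabilized library was above every control by a wide gap, and the spread within each group was small beside it: Trp63 was 7.95-fold higher (log2 fold change 2.99 ± 0.119, edgeR adjusted p = 1.41e-12). The gap had a part on each side. Between the stages Trp63 rose in stabilized buds, with a log2 fold change of 0.68 ± 0.119 (edgeR adjusted p = 0.000225), and fell in controls, at -2.17 ± 0.119 (edgeR adjusted p = 4.83e-11). The genotype effect therefore differed between the stages by 2.85 ± 0.169 (edgeR adjusted p = 7.07e-10) on the log2 scale. E16.5 stabilized replicate 1 was the highest of its group for Trp63 by a small margin, and without it the effect at E16.5 was 2.96 ± 0.121 (edgeR adjusted p = 5.32e-12).

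Promoter windows for 5 of the 10 regulators (Grhl1, Grhl3, Klf4, Ovol2 and Tfap2a) were in the RefSeq table of 32851 windows on GRCm38.p6, each running from 250 bases before to 50 bases after a transcription start. The 250 bases before the start are shown for Grhl1, Grhl3 and Klf4, each of which was higher in stabilized buds at both stages. Klf5 was also higher at both stages but had no window. Capitals mark matches, on either strand, to GCCNNNGGC, the core bound by AP-2 factors, or to CACCC, the box bound by Klf factors. Grhl1 lies at chr12:24572037-24572286 on the plus strand, and for Grhl1 the first of 2 windows is shown. Grhl3 lies at chr4:135573633-135573882 and Klf4 at chr4:55532476-55532725, both on the minus strand and written 5′ to 3′ along the gene.
Grhl1: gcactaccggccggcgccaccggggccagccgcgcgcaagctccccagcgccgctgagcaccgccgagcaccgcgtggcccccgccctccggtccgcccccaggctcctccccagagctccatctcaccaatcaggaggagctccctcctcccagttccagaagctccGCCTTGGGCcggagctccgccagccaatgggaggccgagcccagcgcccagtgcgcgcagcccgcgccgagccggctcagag
Grhl3: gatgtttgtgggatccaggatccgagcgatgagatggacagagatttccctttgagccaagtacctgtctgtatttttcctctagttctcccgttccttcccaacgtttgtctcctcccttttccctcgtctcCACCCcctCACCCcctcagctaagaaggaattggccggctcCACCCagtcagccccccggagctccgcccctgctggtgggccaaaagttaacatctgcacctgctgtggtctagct
Klf4: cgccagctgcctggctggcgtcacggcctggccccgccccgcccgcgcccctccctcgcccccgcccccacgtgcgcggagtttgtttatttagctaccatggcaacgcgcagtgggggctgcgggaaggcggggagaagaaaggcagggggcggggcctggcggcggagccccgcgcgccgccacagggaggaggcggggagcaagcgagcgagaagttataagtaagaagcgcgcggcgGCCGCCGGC
The first Grhl1 window held 1 AP-2 match, 82 bases before the start, and no CACCC. The second Grhl1 window, not shown, held 2 CACCC boxes and no AP-2 match. The Klf4 window held 1 AP-2 match, which began 9 bases before the start, and no CACCC. The Grhl3 window held 3 CACCC boxes and no AP-2 match, and no 2 matches overlapped in any window. Of all 32851 windows, 16.6% held an AP-2 match and 57.5% a CACCC box, so these matches are common. None of the 7 windows of these regulators held the Lef/Tcf core ATCAAAG (3.73% of all windows), the Grhl site AACCGGTT (0.146%), the Ovol core CCGTTA (2.76%) or a pair of p53-family cores (0.712%). A match is a description of the letters in the window and says nothing of binding.

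Grhl1 (ENSMUSG00000020656, chromosome 12, 24572283 to 24617391, plus strand) encodes a grainyhead-like factor that controls desmosomal cadherins in the epidermis. It had 16.4, 13.1, 30.8 and 28.2 CPM in stabilized libraries and 5.89, 8.42, 7.22 and 6.47 CPM in controls at E13.5. Per kilobase of exon it was the lowest of the 10 in both genotypes, yet the groups did not overlap (log2 fold change 1.66 ± 0.285, edgeR adjusted p = 0.00042). E16.5 levels of Grhl1 were 396, 180.1, 196, 203 and 243 CPM in stabilized libraries and 17.2, 32.5, 23.7, 25.8 and 22.4 CPM in controls, with stabilized replicate 1 the highest and no overlap (log2 fold change 3.32 ± 0.266, edgeR adjusted p = 1.58e-08). Without that replicate the effect was 3.08 ± 0.228 (edgeR adjusted p = 5.78e-09). Grhl1 rose with stage in both genotypes, by 3.46 on the log2 scale in stabilized buds and by 1.80 in controls, and E16.5 controls had 24.3 ± 5.54 CPM beside 22.2 ± 8.67 CPM in E13.5 stabilized buds.

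Grhl2 (ENSMUSG00000022286, chromosome 15, 37233036 to 37363569, plus strand) encodes the family member that maintains adherens and tight junction genes in simple and layered epithelia. Its level was the flattest of the 10. E13.5 levels of Grhl2 were 112, 127, 133 and 128 CPM in stabilized libraries and 117, 132, 114 and 125 CPM in controls, which overlapped (log2 fold change 0.03 ± 0.106, edgeR adjusted p = 0.91). E16.5 levels of Grhl2 were 132, 115, 114, 94.8 and 105 CPM in stabilized libraries and 144, 156, 143, 139 and 134 CPM in controls. Each stabilized library lay below each control there, and Grhl2 was 0.783 times the control level (log2 fold change -0.35 ± 0.0953, edgeR adjusted p = 0.00552). That call was lost when the factors of the authors' normalized table were used as offsets (-0.08, edgeR adjusted p = 0.688). The antisense gene Gm16136 shares 1.96% of the Grhl2 exon bases. Neither stage effect passed (-0.16 in stabilized buds and 0.23 in controls, edgeR adjusted p = 0.278 and 0.0675).

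Grhl3 (ENSMUSG00000037188, chromosome 4, 135541888 to 135573630, minus strand) encodes the member required for the epidermal barrier. E13.5 levels of Grhl3 were 62.5, 65.6, 79.1 and 61.1 CPM in stabilized libraries and 43.1, 36.9, 37.2 and 26.1 CPM in controls, with no overlap (log2 fold change 0.90 ± 0.26, edgeR adjusted p = 0.023). That call was lost without control replicate 4 (0.78, edgeR adjusted p = 0.0788) or stabilized replicate 3 (0.82, edgeR adjusted p = 0.0729). E16.5 levels of Grhl3 were 204, 82.3, 80.0, 72.7 and 96.4 CPM in stabilized libraries and 48.6, 39.5, 32.3, 37.0 and 33.7 CPM in controls (log2 fold change 1.48 ± 0.236, edgeR adjusted p = 4.62e-05). Stabilized replicate 1 stood well above the other 4, which were close together and still above every control. Without it the stabilized mean was 82.8 ± 9.90 CPM (n = 4) and the log2 fold change 1.12 ± 0.149 (edgeR adjusted p = 8.28e-06). The rise with stage in stabilized buds was at the threshold (0.67, edgeR adjusted p = 0.0493). It was lost in 13 of the 18 fits that left out a library (0.31 and edgeR adjusted p = 0.172 without E16.5 stabilized replicate 1), without the filter on low counts, with the offsets and with the 2 groups fitted alone. In controls Grhl3 differed by 0.09 between the stages (edgeR adjusted p = 0.787).

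Klf4 (ENSMUSG00000003032, chromosome 4, 55527143 to 55532466, minus strand) encodes a zinc finger factor of differentiating suprabasal cells that the skin barrier needs. E13.5 levels of Klf4 were 17.8, 10.2, 29.6 and 25.5 CPM in stabilized libraries and 7.25, 6.54, 8.09 and 9.35 CPM in controls. The lowest stabilized library lay just above the highest control, and the call was close to the threshold (log2 fold change 1.41 ± 0.424, edgeR adjusted p = 0.0332), with 7 of 18 fits that left out a library, the fit without the filter on low counts and the fit with the offsets on the other side of it. E16.5 levels of Klf4 were 569.7, 172, 178, 152 and 183 CPM in stabilized libraries and 24.0, 24.7, 32.4, 38.7 and 16.2 CPM in controls (log2 fold change 3.21 ± 0.397, edgeR adjusted p = 6.45e-06). Stabilized replicate 1 was more than 3 times the next highest library, and the other 4 lay close together, far above the controls. Without it the stabilized mean was 171 ± 13.8 CPM (n = 4) and the log2 fold change 2.65 ± 0.262 (edgeR adjusted p = 3.42e-07). Klf4 rose with stage by 3.59 on the log2 scale in stabilized buds and by 1.80 in controls (edgeR adjusted p = 1.68e-05 and 0.00195).

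Klf5 (ENSMUSG00000005148, chromosome 14, 99298691 to 99315036, plus strand) encodes a family member found in proliferating basal cells of many epithelia. It had 124, 75.8, 165 and 141 CPM in stabilized libraries and 82.3, 62.6, 67.4 and 77.1 CPM in controls at E13.5. Stabilized replicate 2 fell among the controls, and the call (log2 fold change 0.80 ± 0.259, edgeR adjusted p = 0.0432) was lost in 12 of the 18 fits that left out a library, without the filter on low counts and with the offsets. The call was clearer at E16.5, where it had 535, 257, 256, 272 and 402 CPM in stabilized libraries and 82.5, 164, 127, 141 and 143 CPM in controls (log2 fold change 1.39 ± 0.234, edgeR adjusted p = 9.38e-05). No libraries overlapped at that stage, and without stabilized replicate 1 the effect was 1.17 ± 0.210 (edgeR adjusted p = 0.000211). Klf5 rose with stage in stabilized buds (1.45, edgeR adjusted p = 0.000289) and in controls (0.86, edgeR adjusted p = 0.0082).

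Ovol1 (ENSMUSG00000024922, chromosome 19, 5549136 to 5560646, minus strand) encodes a zinc finger repressor that takes epidermal progenitors out of the cell cycle. E13.5 levels of Ovol1 were 22.7, 5.31, 26.9 and 23.6 CPM in stabilized libraries and 10.2, 5.38, 12.6 and 7.60 CPM in controls. Stabilized replicate 2 was the lowest library of the stage while the other 3 lay above every control, and the difference did not pass (log2 fold change 1.14 ± 0.427, edgeR adjusted p = 0.0899). It passed without that replicate (1.45, edgeR adjusted p = 0.00526) and by DESeq2 (1.13, adjusted p = 0.0281). E16.5 levels of Ovol1 were 288, 121, 93.6, 114 and 159 CPM in stabilized libraries and 18.4, 16.4, 20.0, 23.7 and 26.5 CPM in controls, far apart (log2 fold change 2.88 ± 0.399, edgeR adjusted p = 1.92e-05), and without stabilized replicate 1 the effect was 2.54 ± 0.355 (edgeR adjusted p = 2.63e-05). Genes on the opposite strand share 19.8% (Gm31166) and 2.18% (AC126029.1) of the Ovol1 exon bases, and how strand was handled in counting is not given in the sources used here, which leaves part of these counts uncertain.

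Ovol2 (ENSMUSG00000037279, chromosome 2, 144305175 to 144332146, minus strand) encodes the paralogue that holds down mesenchymal genes such as Zeb1 in epithelial cells. Per kilobase of exon it was among the lowest 2 of the 10 in every group. E13.5 levels of Ovol2 were 7.80, 8.36, 10.5 and 8.93 CPM in stabilized libraries and 6.36, 4.52, 3.48 and 2.72 CPM in controls, with every stabilized library above every control (log2 fold change 1.06 ± 0.283, edgeR adjusted p = 0.0142). That call was lost without stabilized replicate 3 (0.97, edgeR adjusted p = 0.0507), with the offsets (edgeR adjusted p = 0.0515) and with the 2 groups fitted alone (edgeR adjusted p = 0.0718). E16.5 levels of Ovol2 were 6.93, 8.20, 4.84, 6.00 and 9.98 CPM in stabilized libraries and 8.67, 8.53, 10.3, 10.1 and 10.9 CPM in controls. The groups overlapped and the sign was the opposite (log2 fold change -0.43 ± 0.25, edgeR adjusted p = 0.181). The change of the genotype effect between the stages passed its own test at -1.49 ± 0.378 (edgeR adjusted p = 0.00476). Ovol2 rose with stage in controls (1.18, edgeR adjusted p = 0.00144) and did not pass in stabilized buds (-0.31, edgeR adjusted p = 0.438). An antisense gene, 1700108N11Rik, shares 17.0% of its exon bases.

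Tfap2a (ENSMUSG00000021359, chromosome 13, 40715302 to 40738376, minus strand) encodes AP-2α, a regulator of surface ectoderm and epidermal genes. E13.5 levels of Tfap2a were 172, 182, 224 and 195 CPM in stabilized libraries and 276, 254, 130.2 and 216 CPM in controls. Control replicate 3 was the lowest library of the stage and the groups overlapped (log2 fold change -0.18 ± 0.237, edgeR adjusted p = 0.723). E16.5 levels of Tfap2a were 427, 244, 233, 201 and 336 CPM in stabilized libraries and 122, 206, 174, 137 and 148 CPM in controls, with stabilized replicate 4 just under the highest control (log2 fold change 0.87 ± 0.213, edgeR adjusted p = 0.00268). Without stabilized replicate 1 the effect was 0.68 ± 0.195 (edgeR adjusted p = 0.00909). In the reported edgeR fit neither stage effect passed, at 0.57 in stabilized buds and -0.48 in controls (edgeR adjusted p = 0.0662 and 0.0879). The fall in controls passed without E13.5 control replicate 3 (-0.66, edgeR adjusted p = 0.0139), as it also did without E16.5 control replicate 2 (-0.60, edgeR adjusted p = 0.043) or E16.5 stabilized replicate 1 (-0.48, edgeR adjusted p = 0.0485). Without both libraries that stood apart this fall was -0.66 (edgeR adjusted p = 0.00372). The rise in stabilized buds passed without E13.5 control replicate 3 (0.58, edgeR adjusted p = 0.0306) or E16.5 stabilized replicate 4 (0.69, edgeR adjusted p = 0.0281). With all libraries this rise passed by DESeq2 (0.59, adjusted p = 0.0365) and with the offsets (0.89, edgeR adjusted p = 0.0214). Of 3 antisense genes there, Gm26688 shares the most Tfap2a exon bases, 7.75%.

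Tfap2c (ENSMUSG00000028640, chromosome 2, 172549593 to 172558622, plus strand) encodes AP-2γ, which in the mammary gland is known from luminal cells and in ectoderm from early epidermal specification. It was the only member of the 10 that was lower in stabilized buds by more than 1 on the log2 scale. E13.5 levels of Tfap2c were 68.0, 49.6, 65.2 and 44.5 CPM in stabilized libraries and 68.8, 71.3, 50.4 and 53.3 CPM in controls, fully overlapping (log2 fold change -0.10 ± 0.189, edgeR adjusted p = 0.829). E16.5 levels of Tfap2c were 86.0, 56.7, 61.3, 39.1 and 67.8 CPM in stabilized libraries and 221, 199, 234, 226 and 234 CPM in controls. The controls were tight and every one was above every stabilized library (log2 fold change -1.84 ± 0.174, edgeR adjusted p = 7.58e-08), so that stabilized buds had 0.279 times the control level. In stabilized buds the change between the stages did not pass (0.13 ± 0.18, edgeR adjusted p = 0.657), while controls rose by a log2 fold change of 1.87 (edgeR adjusted p = 1.46e-07). Tfap2c and Trp63 thus ran in opposite directions in controls between the stages.

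**Figure D2:**
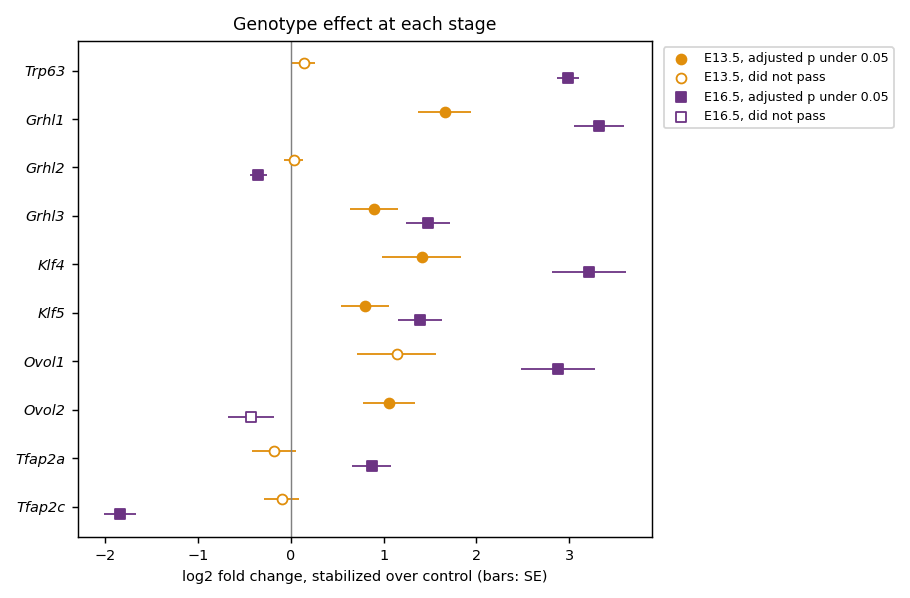
Genotype effect on each regulator at E13.5 (orange circles) and E16.5 (purple squares), as the log2 fold change of stabilized over control with its SE; open symbols did not pass an adjusted p of 0.05. Trp63, Grhl1, Klf4 and Ovol1 lie between 2.88 and 3.32 at E16.5, and Tfap2c lies at -1.84.

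The change of the genotype effect from E13.5 to E16.5 was tested as an interaction. It was positive for 5 regulators, Trp63 (2.85), Grhl1 (1.66), Klf4 (1.79), Ovol1 (1.75) and Tfap2a (1.05), and negative for 3, Tfap2c (-1.74), Ovol2 (-1.49) and Grhl2 (-0.39), on the log2 scale. Over all tested genes 15.6% were positive and 16.6% negative. The edgeR adjusted p ranged from 7.07e-10 for Trp63 to 0.0441 for Grhl2, and the Grhl2 call was lost in 14 of 18 fits that left out a library and with DESeq2 size factors, DESeq2, no filter on low counts, the offsets or the replicate block. That of Ovol1 (edgeR adjusted p = 0.026) was lost without E13.5 control replicate 1 or 3 (1.68 and 1.54, edgeR adjusted p = 0.0503 and 0.0587) and without both libraries that stood apart (1.20, edgeR adjusted p = 0.0935). For Grhl3 and Klf5 the interaction did not pass (0.58 and 0.59, edgeR adjusted p = 0.222 and 0.215). The genotype effects at the 2 stages rest on separate libraries, whereas the interaction and the stage effects reuse them.

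Within a library, the ratio of 2 paralogues does not depend on how libraries are scaled. It can still depend on the gene-specific factors of the authors' normalized table, which were not applied to the ratios. Relative to the median of each library, that factor was 0.572 to 1.12 for Klf4 and 0.999 to 1.00 for Klf5 in E13.5 controls. The log2 ratio of Grhl1 to Grhl2 counts was -2.58 ± 0.54 in stabilized libraries and -4.13 ± 0.18 in controls at E13.5, and 1.06 ± 0.37 in stabilized libraries and -2.58 ± 0.30 in controls at E16.5. The ratio was above 0 in all 5 E16.5 stabilized libraries and below 0 in the other 13 libraries. The differences between genotypes were 1.55 at E13.5 and 3.65 at E16.5 (exact two-sided permutation p = 0.0286 and 0.00794, the smallest that 4 against 4 and 5 against 5 libraries can give, and 0.0357 and 0.0159 after adjustment over 10 ratio comparisons). The ratios of Grhl3 to Grhl2 (0.89 and 1.74) and of Klf4 to Klf5 (0.56 and 1.70) had the same complete separation and the same p-values. For Ovol1 to Ovol2 the genotypes overlapped at E13.5 (difference -0.15, exact permutation p = 0.771) and were apart at E16.5, at 4.35 ± 0.60 in stabilized libraries and 1.10 ± 0.15 in controls (difference 3.25, exact permutation p = 0.00794). The ratio of Tfap2a to Tfap2c did not separate at E13.5 (difference -0.02, exact permutation p = 0.914), and at E16.5 it was 2.20 ± 0.18 in stabilized libraries and -0.52 ± 0.36 in controls (difference 2.72, exact permutation p = 0.00794). Within these families, then, unequal change was measured, which does not show that either paralogue was constant.

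**Figure D3:**
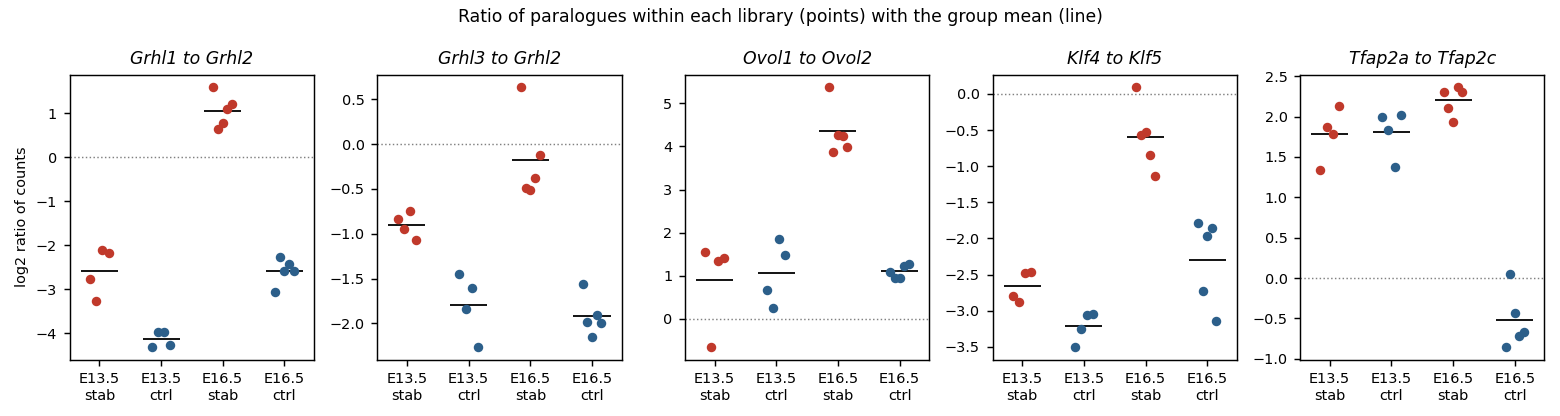
Log2 ratio of counts of 5 pairs of paralogues in each library (points; red stabilized, blue control) with group means (lines); the dotted line at 0 marks equal counts, without correction for length. At E16.5 the stabilized libraries lie above the controls in all 5 panels, and at E13.5 the genotypes overlap for Ovol1 to Ovol2 and for Tfap2a to Tfap2c.

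Between the stages, 6 regulators were higher at E16.5 than at E13.5 in stabilized buds (Trp63, Grhl1, Grhl3, Klf4, Klf5 and Ovol1) and 0 were lower. The number higher lay between 5 and 7 over the fits that left out a library, and the Grhl3 call was lost in 13 of these 18. Of all tested genes 28.0% were called in that comparison, 2852 higher and 1990 lower. In controls 6 were higher (Grhl1, Klf4, Klf5, Ovol1, Ovol2 and Tfap2c) and 1, Trp63, was lower, where 24.9% of all tested genes were higher and 22.6% lower. The median log2 fold change of the 10 was 0.68 in stabilized buds and 1.02 in controls, beside 0.00 and -0.03 over all tested genes. Grhl1, Klf4 and Ovol1 rose by 3.46, 3.59 and 2.98 on the log2 scale in stabilized buds, and by 1.80, 1.80 and 1.23 in controls. The call for Ovol1 in controls (edgeR adjusted p = 0.0213) was lost without E13.5 control replicate 2 or 4 (1.06 and 1.17, edgeR adjusted p = 0.0686 and 0.0563). The number lower in controls was 2, with Tfap2a the second, without E13.5 control replicate 3, without E16.5 control replicate 2 and without E16.5 stabilized replicate 1.

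**Figure D4:**
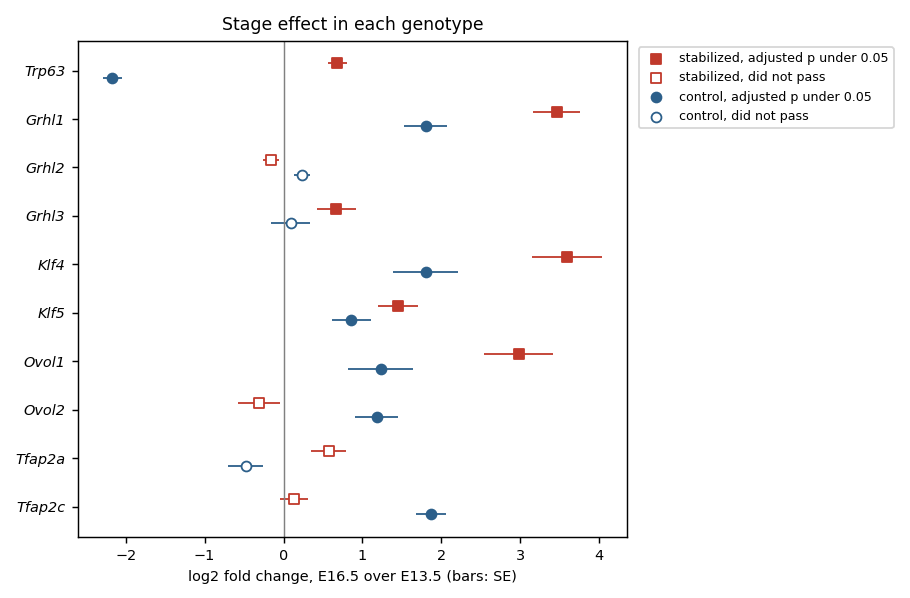
Stage effect on each regulator in stabilized buds (red squares) and controls (blue circles), as the log2 fold change of E16.5 over E13.5 with its SE; open symbols did not pass an adjusted p of 0.05. Trp63 is at 0.68 in stabilized buds and -2.17 in controls, and Tfap2c at 0.13 and 1.87.

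To set the genes side by side, levels were divided by the length of each gene's merged exons (CPM per kilobase). Trp63 had the highest such level in stabilized buds at both stages, 54.3 ± 4.81 at E13.5 and 87.2 ± 4.91 at E16.5, and in E13.5 controls, 49.3 ± 6.05. In E16.5 controls Tfap2c came first at 60.6 ± 3.92 and Trp63 sixth at 11.0 ± 1.45, between Grhl3 (13.7 ± 2.31) and Klf4 (8.92 ± 2.83), whose ranges overlapped with its own. Between Tfap2c and Grhl3 stood Tfap2a (32.1 ± 6.78), Klf5 (25.3 ± 5.84) and Grhl2 (16.6 ± 0.975), and below Klf4 came Ovol1 (6.02 ± 1.17), Ovol2 (4.59 ± 0.494) and Grhl1 (4.39 ± 1.00). Of these neighbours the first 2, Tfap2c and Tfap2a, were the only pair without overlap. In E16.5 stabilized buds the first 7, from Trp63 through Klf4, Klf5, Tfap2a, Ovol1 and Grhl1 to Grhl3 (38.4 ± 19.6), each overlapped with their neighbours among the 7. Tfap2c (16.9 ± 4.63), Grhl2 (13.0 ± 1.59) and Ovol2 (3.40 ± 0.942) followed below them, with no overlap between Grhl3 and Tfap2c or between Grhl2 and Ovol2. At E13.5 Trp63 and Tfap2a (39.4 ± 4.65 in stabilized buds and 44.7 ± 13.1 in controls) led. After them came Klf5 (24.3 ± 7.22), Grhl3 (24.1 ± 2.95), Tfap2c (15.4 ± 3.14) and Grhl2 (14.5 ± 1.09) in stabilized buds, with a gap between Grhl3 and Tfap2c, and Tfap2c (16.6 ± 2.89), Grhl2 (14.2 ± 0.949), Klf5 (13.9 ± 1.73) and Grhl3 (12.8 ± 2.55) in controls, where these 4 overlapped from neighbour to neighbour. The lowest 4 in both genotypes, below a gap, were Klf4, Ovol1, Ovol2 and Grhl1. Their neighbours overlapped in each case, and Grhl1 was last at 4.00 ± 1.57 in stabilized buds and 1.26 ± 0.197 in controls.

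For each regulator, the tested genes whose pattern over the 4 groups was closest were found by the distance between their group means, each expressed as log2 CPM relative to its own mean. Closest to Trp63 was Cpxm1 (distance 0.251), with 65.6 CPM in stabilized buds and 9.34 CPM in controls at E16.5, and no other regulator came nearer than 1.66. Grhl1 and Klf4 lay close to each other (0.251), and Hspa1a, a heat shock gene, was among the 3 nearest of both. Ovol1 was nearest to Il1r1 (0.0303), an interleukin receptor gene, and also near it was Zfp750 (0.357), a zinc finger factor of epidermal differentiation with 226 CPM in stabilized buds and 43.5 CPM in controls at E16.5. Tfap2c was nearest to Gne (0.141), then to Tlnrd1 (0.184) and Ccnd1 (0.209). Ccnd1, the gene for cyclin D1, had 373 CPM in stabilized buds and 1580 CPM in controls at E16.5. Klf5 was nearest to Sncaip (0.101), Grhl3 to Arl15 (0.0647), Grhl2 to Cpsf7 (0.0263), Ovol2 to Vangl1 (0.174) and Tfap2a to Bpgm (0.0688). These are likenesses over 4 group means of the same libraries and carry no test.

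Paralogues of the 10 were called in both directions as well, where 9.58% of all tested genes were higher and 5.29% lower at E13.5. The shares at E16.5 were 22.2% and 19.4%. Of 18 tested paralogues, 3 were higher and 2 lower in stabilized buds at E13.5 (median log2 fold change -0.10), and 9 were higher and 3 lower at E16.5 (0.82). At E13.5, 1 was higher without control replicate 1 or 2 or stabilized replicate 2, and 1 was lower without control replicate 1 or stabilized replicate 3 or 4. Tfap2b, for AP-2β, had 334 ± 56.9 CPM in stabilized buds and 471 ± 54.9 CPM in controls at E13.5 and was lower (log2 fold change -0.50), a call lost in 3 of the 18 fits that left out a library. At E16.5 it was higher, with 278 ± 39.5 CPM in stabilized buds and 139 ± 10.9 CPM in controls (1.00, edgeR adjusted p = 2.04e-06), as was Trp73, the p53-family relative of Trp63, with 71.8 ± 17.7 CPM in stabilized buds and 21.1 ± 6.99 CPM in controls (1.77). Klf7 was lower at E13.5 (-1.66, edgeR adjusted p = 1.64e-05) and Klf13 higher (1.20). Klf9 was higher at E13.5 (0.76, edgeR adjusted p = 0.028, lost in 4 of those fits) and lower at E16.5 (-1.53, edgeR adjusted p = 5.3e-06), with 11.6 ± 3.06 CPM in stabilized buds and 33.3 ± 4.78 CPM in controls at the later stage. Klf12 was higher at E16.5 (2.48). Of the most abundant paralogues without a call, Klf3 (-0.43) and Trp53 (-0.32) at E13.5 and Klf6 (0.29) and Klf7 (0.13) at E16.5 did not pass (edgeR adjusted p = 0.155, 0.238, 0.498 and 0.605). Klf3 was lower without E16.5 stabilized replicate 1 (edgeR adjusted p = 0.0356) and Trp53 without E13.5 control replicate 3 (edgeR adjusted p = 0.0458).

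Of 23 other regulators of stratification, 12 were higher and 4 lower at E13.5 (median log2 fold change 0.88), and 15 were higher and 1 lower at E16.5 (1.10), or 2 lower without stabilized replicate 1 or 3. Beside them, 9.58% of all tested genes were higher and 5.29% lower at E13.5, and 22.2% and 19.4% at E16.5. Prdm1, for the repressor Blimp1 of terminally differentiating keratinocytes, had 24.6 ± 8.96 CPM in stabilized buds and 2.38 ± 0.792 CPM in controls at E13.5 (3.37, edgeR adjusted p = 1.18e-07, or 1.87 with the offsets). At E16.5 Prdm1 reached 94.6 ± 23.2 CPM in stabilized buds and 4.21 ± 0.613 CPM in controls (4.49, edgeR adjusted p = 1.41e-10). Gata3, for a factor of both mammary and epidermal epithelium, was lower at E13.5, with 397 ± 59.1 CPM in stabilized buds and 1050 ± 179 CPM in controls (-1.40), and did not pass at E16.5 (0.34, edgeR adjusted p = 0.116). The vitamin D receptor gene Vdr was lower at E13.5 (-1.56, or -2.22 with the offsets) and higher at E16.5 (2.63), and the homeobox genes Barx2 at E13.5 (4.36) and Msx2 (5.41) and Dlx3 (3.95) at E16.5 were higher. Barx2 did not pass at E16.5, with 106 ± 39.5 CPM in stabilized buds and 95.5 ± 9.88 CPM in controls (0.15, edgeR adjusted p = 0.818). At E13.5 the kinase gene Ripk4 (-0.27, edgeR adjusted p = 0.195) did not pass.

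Among 26 genes taken as p63 targets, 10 were higher and 5 lower at E13.5 (median log2 fold change 0.34), the stage at which Trp63 itself did not pass, and 18 were higher and 2 lower at E16.5 (0.80). Only 3 were lower at E13.5 without E13.5 stabilized replicate 1. All tested genes were called higher in 9.58% and lower in 5.29% at E13.5, and in 22.2% and 19.4% at E16.5. Lamb3, for a chain of a laminin of the basement membrane, had 88.4 ± 40.2 CPM in stabilized buds and 23.6 ± 3.79 CPM in controls at E13.5 (1.91). It had 211 ± 39.4 CPM in stabilized buds and 16.3 ± 1.51 CPM in controls at E16.5 (3.69, edgeR adjusted p = 1.17e-09). Perp, for a desmosome-associated membrane protein, had 1330 ± 574 CPM in stabilized buds and 116 ± 9.07 CPM in controls at E16.5 (3.52, or 3.21 to 3.62 when a library was left out). Cldn1, for a tight junction claudin, was higher by 3.06 at that stage. Perp did not pass at E13.5, with 177 ± 38.6 CPM in stabilized buds and 147 ± 46.4 CPM in controls (0.26, edgeR adjusted p = 0.604). Dst, for a plakin of the hemidesmosome, was higher at both stages (1.22 and 2.37), whereas the hemidesmosome genes Col17a1 at E13.5 (0.57, edgeR adjusted p = 0.0686) and Itgb4 at E16.5 (-0.07, edgeR adjusted p = 0.779) did not pass. Col17a1 passed without E13.5 stabilized replicate 2 (edgeR adjusted p = 0.0303) or E16.5 stabilized replicate 4 (edgeR adjusted p = 0.0388) and by DESeq2 (adjusted p = 0.0396). The matrix and adhesion genes Fras1 (-1.97) and Itga6 (-1.50) were lower at E13.5, with 400 ± 193 CPM of Fras1 in stabilized buds and 1570 ± 326 CPM in controls. Krt14, for the basal keratin whose promoter drives Cre, was lower at E13.5 (-1.22, edgeR adjusted p = 0.00169) and did not pass at E16.5 (-0.37, edgeR adjusted p = 0.189), where it was lower without stabilized replicate 1 (-0.69, edgeR adjusted p = 0.00235).

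In the list of 18 Grhl targets and epithelial junction genes, 6 were higher and 1 lower at E13.5 (median log2 fold change 0.16), and 13 were higher and 4 lower at E16.5 (1.07). The number lower at E13.5 was 0 without E13.5 control replicate 1, 2 without E13.5 control replicate 3 or E16.5 stabilized replicate 4, and 3 without E16.5 stabilized replicate 1. Shares over all tested genes were 9.58% higher and 5.29% lower at E13.5, and 22.2% and 19.4% at E16.5. Dsp, for the desmosome protein desmoplakin, had 1800 ± 215 CPM in stabilized buds and 941 ± 133 CPM in controls at E13.5 (0.94, edgeR adjusted p = 0.00591). At E16.5 Dsp had 7320 ± 3050 CPM in stabilized buds and 963 ± 116 CPM in controls (2.93, edgeR adjusted p = 1.99e-09). Leaving out a library gave 2.63 to 3.03. The protease gene St14 (1.61) and the transglutaminase gene Tgm1 (2.51) were higher at E13.5, the call for Tgm1 being lost with the offsets (1.18, edgeR adjusted p = 0.41), and Prom2 (3.65, or 2.35 with the offsets) and the splicing regulator gene Esrp2 (2.14) at E16.5. Cldn7, a claudin gene, was lower at E16.5, with 18.9 ± 5.01 CPM in stabilized buds and 87.0 ± 14.5 CPM in controls (-2.20, edgeR adjusted p = 3.47e-08). Rab15, for a small GTPase, was lower at E13.5 (-0.69, edgeR adjusted p = 0.012), a call lost without E13.5 control replicate 1 (edgeR adjusted p = 0.0519). The difference at E16.5 missed the threshold (-0.35, edgeR adjusted p = 0.0893) and passed it without E13.5 control replicate 3 (edgeR adjusted p = 0.00953) and with the 2 groups fitted alone (edgeR adjusted p = 0.0137). The epithelial adhesion genes Epcam (-0.26) and Cdh1 (0.32) did not pass at E13.5 (edgeR adjusted p = 0.181 and 0.197).

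Of 10 mesenchymal genes that Ovol and Grhl factors are known to hold down, 1 was higher and 1 lower at E13.5 (median log2 fold change 0.14), and 3 were higher and 1 lower at E16.5 (0.67). These counts were near the shares over all tested genes, 9.58% higher and 5.29% lower at E13.5, and 22.2% and 19.4% at E16.5. Cdh2, for N-cadherin, was higher at both stages, with 33.0 ± 4.74 CPM in stabilized buds and 2.97 ± 0.508 CPM in controls at E13.5 (3.47, edgeR adjusted p = 3.52e-07) and a log2 fold change of 1.35 at E16.5. Vim, for vimentin, was lower at both stages, with 175 ± 42.3 CPM in stabilized buds and 575 ± 83.0 CPM in controls at E16.5 (-1.72, edgeR adjusted p = 9.46e-08). Snai1 (2.64) and Snai2 (0.89) were higher at E16.5, Snai1 at a low level of 2.40 ± 0.173 CPM in stabilized buds and 0.383 ± 0.300 CPM in controls. Fn1, for fibronectin, did not pass at E13.5 (0.66, edgeR adjusted p = 0.129) or E16.5 (0.44, edgeR adjusted p = 0.162), where it passed without E13.5 control replicate 3 (edgeR adjusted p = 0.0325) and with the 2 groups fitted alone (edgeR adjusted p = 0.0237). Nor did Snai2 at E13.5 (0.64, edgeR adjusted p = 0.136), which passed without control replicate 3 (1.06, edgeR adjusted p = 0.0027), or Twist2 at E16.5 (1.49, edgeR adjusted p = 0.178). Without E13.5 control replicate 3 the number higher at E13.5 was 3, which was also the number without both libraries that stood apart.

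Suprabasal and cornified layer genes, whose products build the upper layers of the epidermis, were higher at E16.5, whereas at E13.5 most were not called. Of 26, 6 were higher, 0 lower and 20 not called at E13.5 (median log2 fold change 1.96), and all 26 tested were higher at E16.5 (5.72). The 6 became 10 by DESeq2 and 2 with the 2 groups fitted alone. Higher calls over all tested genes were 9.58% at E13.5 and 22.2% at E16.5, and lower calls 5.29% and 19.4%. The suprabasal keratin genes Krt10 (0.75, edgeR adjusted p = 0.704) and Krt1 (0.02, edgeR adjusted p = 1.0) did not pass at E13.5, with 22.1 ± 7.29 CPM of Krt10 in stabilized buds and 13.1 ± 6.33 CPM in controls. Summed over all 26 genes of the list, the E13.5 level was 68.8 to 147 CPM in stabilized libraries and 29.7 to 47.2 CPM in controls. The same sum at E16.5 was 3390 to 28200 CPM in stabilized libraries and 95.0 to 319 CPM in controls. Asprv1, for a protease that processes filaggrin, was higher at E13.5 (2.32, edgeR adjusted p = 0.00169) and at E16.5 (4.51), where it had 508 ± 349 CPM in stabilized buds and 22.3 ± 6.93 CPM in controls. Its E16.5 effect lay between 4.00 and 4.68 over the fits that left out a library. At E13.5 the desmosomal cadherin gene Dsg1a had 9.46 ± 7.63 CPM in stabilized buds and 0.264 ± 0.327 CPM in controls, with the call lost when the 2 groups were fitted alone (edgeR adjusted p = 0.0522), and Sprr1a, for a cornified envelope precursor, had 3.91 ± 3.73 CPM in stabilized buds and 0.0303 ± 0.0242 CPM in controls. Cdsn, for corneodesmosin, had 120 ± 112 CPM in stabilized buds and 0.258 ± 0.204 CPM in controls at E16.5, a log2 fold change of 8.88, or 8.14 without stabilized replicate 1. The lipid transporter gene Abca12 was higher by 5.02, and Calml3, for a calmodulin-like protein, by 5.73. Leaving out a library gave 4.55 to 5.21 for Abca12 and 5.30 to 5.87 for Calml3. With both libraries that stood apart left out, 25 of the suprabasal genes were higher at E16.5.

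**Figure D5:**
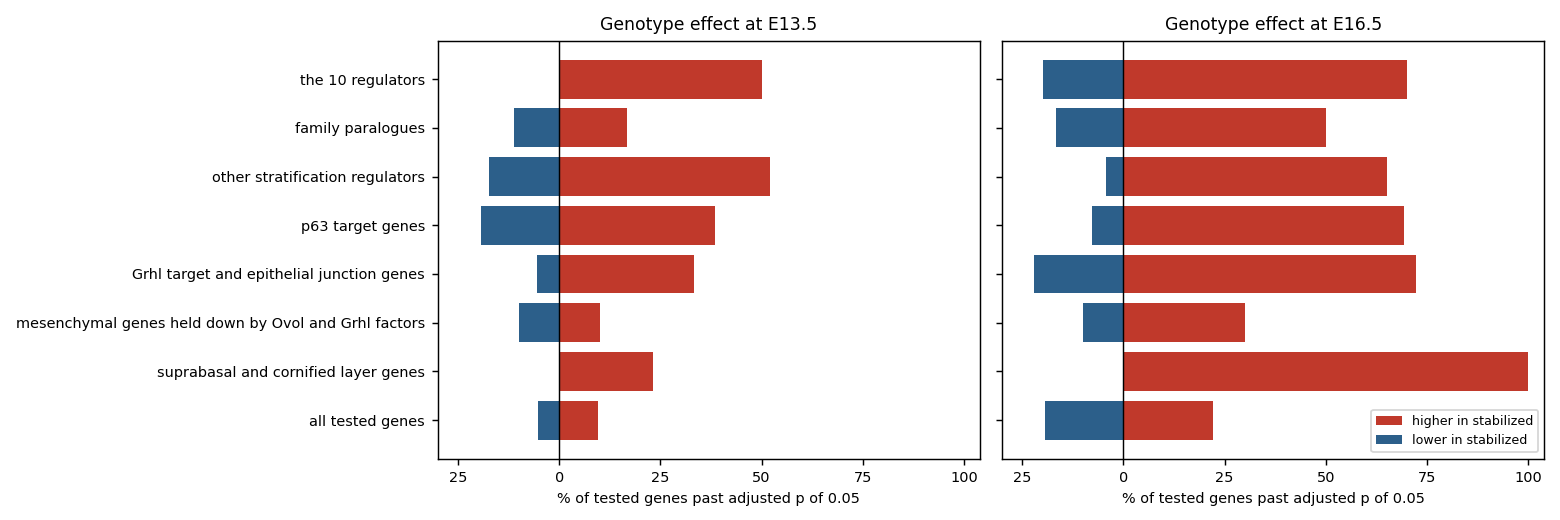
Share of the tested genes of each list that were higher (red, to the right) or lower (blue, to the left) in stabilized buds at E13.5 and at E16.5, in percent, with all tested genes at the bottom. At E16.5 the bars of the 10 regulators reach 7 of 10 higher and 2 of 10 lower, and those of all tested genes 22.2% and 19.4%.

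Markers of other cell types were summed and counted in the same libraries. Among all tested genes 9.58% were higher and 5.29% lower at E13.5, and 22.2% were higher and 19.4% lower at E16.5. Over 10 mesenchyme markers the summed level was 552 to 748 CPM in stabilized libraries and 93.0 to 649 CPM in controls at E13.5, and 429 to 738 CPM in stabilized libraries and 117 to 408 CPM in controls at E16.5. Of the 10, 1 was higher and 0 lower at E13.5 (Postn), and 2 were higher (Dcn and Postn) and 2 lower (Pdgfra and Pdgfrb) at E16.5. These mesenchyme counts were near the shares over all tested genes. The summed ranges of the genotypes overlapped at E13.5 and not at E16.5, but single genes made up much of the sums. Postn alone had 488 ± 132 CPM in stabilized buds and 88.0 ± 50.2 CPM in controls at E13.5. Dcn alone had 301 ± 74.7 CPM in stabilized buds and 4.02 ± 3.46 CPM in controls at E16.5. Summed over 7 neural and Schwann markers the level was 159 to 226 CPM in stabilized libraries and 17.3 to 28.1 CPM in controls at E13.5, and 98.3 to 146 CPM in stabilized libraries and 503 to 629 CPM in controls at E16.5. Of the 7, 2 were higher at E13.5 (Tubb3 and Sox10), and 2 were higher (Tubb3 and Stmn2) and 1 lower (Sox10) at E16.5. Sox10, which is also on the melanocyte list, had a log2 fold change of 2.62 at E13.5 and -4.22 at E16.5. At E16.5 Sox10 alone had 29.6 ± 19.9 CPM in stabilized buds and 554 ± 59.0 CPM in controls. It thus made up most of the E16.5 control sums of both lists, which do not measure 2 cell types separately. The 6 melanocyte markers summed to 16.7 to 33.5 CPM in stabilized libraries and 12.2 to 17.5 CPM in controls at E13.5, and to 113 to 219 CPM in stabilized libraries and 568 to 753 CPM in controls at E16.5. On that list Sox10 alone was called at E13.5, and Tyrp1 (4.43) was higher at E16.5. Endothelial, immune and muscle markers summed to at most 22.9 CPM in any library, with no counts of Emcn in E13.5 stabilized libraries, of Adgre1, C1qa and Tyrobp in E13.5 controls, or of Myog in both E16.5 groups, and with 1 muscle gene (Tnni1 at E16.5, Tnnt1 at E13.5) higher at each stage and no endothelial or immune gene called. The 9 epithelium and mammary bud markers summed to 3090 to 3850 CPM in stabilized libraries and 4430 to 4840 CPM in controls at E13.5, and to 3230 to 6350 CPM in stabilized libraries and 2710 to 3210 CPM in controls at E16.5. The genotypes did not overlap at either stage, with stabilized libraries below controls at E13.5 and above them at E16.5. Of the 9, 1 was higher (Krt5) and 5 lower (Tbx3, Pthlh, Krt14, Krt8 and Lef1) at E13.5, and 3 were higher (Lef1, Krt5 and Cdh1) and 5 lower (Epcam, Krt18, Krt8, Tbx3 and Pthlh) at E16.5. The part of these cell types in the levels of the 10 regulators was not tested.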

How the data were processed

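RNA-seq libraries of embryonic mammary epithelium were analysed from 2 deposited tables of 18 libraries. Per the submitters' processing notes, the tools included Salmon 0.99.0 and DESeq2 3.15, after Trimmomatic 0.39, FastQC 0.11.8 and MultiQC 1.9, with the build mm10; no annotation release or strand setting is given there. The main table holds estimated counts per gene deposited by the authors, already whole numbers, so nothing was rounded. The second table holds a signal deposited by the authors, the same counts divided by a factor that differs between genes and libraries, and served only as the source of offsets in an alternative fit. No value column was left unmapped.

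Libraries were grouped by stage and genotype from the labels. In edgeR 4.0.16 (R 4.3.3), filterByExpr with a minimum count of 10 kept 17269 of 24376 genes. A robust quasi-likelihood model with TMM factors and a mean for each of the 4 groups was fitted on 18 libraries together, which then share 1 estimate of the spread (common dispersion 0.250). Benjamini-Hochberg adjustment ran over all 17269 genes. The p-values measure the spread between pools of embryos, whose litters are not named in the labels. Ratios of paralogues used log2 of counts plus 0.5 and exact two-sided permutation tests (SciPy 1.17.1). Lists were described by counts and medians alone. Gene positions and exon lengths came from GENCODE M21 and promoter windows from RefSeq (GRCm38.p6). The fit was first tested on simulated data.

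Alternatives were DESeq2 size factors, the DESeq2 1.42.0 Wald test, no count filter, the offsets, a replicate block, the 2 groups compared alone, each library left out in turn, a ratio pseudocount of 5 and, added after seeing the data, both libraries that stood apart left out. The 10 genes, the lists and the tests were chosen with earlier results of these data known. Named beside the 10 were, per list and genotype comparison, up to 4 genes with the smallest adjusted p and up to 2 that did not pass with the highest mean CPM; for the marker lists the called members; and for each regulator up to 3 genes with the nearest pattern. A gene that this rule names is not reported here.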

Additional observations from a re-analysis of the deposited data

Results flagged for a closer look

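In 3 of 40 groups of libraries a value lay far from the rest of its group by Dixon's test, which chance does in about 1 of 20 groups. Klf4 had 569.7 CPM and Grhl3 203.7 CPM in E16.5 stabilized replicate 1, the library with the most suprabasal transcripts. Trp63 had 338.1 CPM in E13.5 control replicate 3, the library with the most mesenchyme marker counts among the E13.5 controls.

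The genotype effect differed between E16.5 and E13.5 for 8 of the 10 regulators by the edgeR interaction test, in which 15.6% of all tested genes were positive and 16.6% negative. The E16.5 effect was larger by 2.85 for Trp63, 1.66 for Grhl1, 1.79 for Klf4, 1.75 for Ovol1 and 1.05 for Tfap2a on the log2 scale. The interaction was -1.74 for Tfap2c, -1.49 for Ovol2 and -0.39 for Grhl2, the last of which did not pass in 14 of 18 fits that left out a library.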

How the results depend on the processing

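Of the 50 tests of the 10 regulators (5 comparisons), 49 kept their direction and side of the threshold with DESeq2 size factors, 47 with the DESeq2 Wald test, 46 without the count filter, 42 with the offsets, 48 with the replicate block and 44 without both libraries that stood apart. With the 2 groups fitted alone, which leaves no interaction to test, 38 of 40 did, Ovol2 at E13.5 and the Grhl3 stage effect in stabilized buds being lost. At E13.5, 1020 genes were higher when the 2 groups were fitted alone and 564 lower with the offsets (1655 and 914 in the reported fit). The regulators higher at E13.5 numbered 3 without the filter and 2 with the offsets, and 1 to 6 over the 18 fits that left out a library. With the offsets 1 regulator was lower at E16.5 and 1891 genes had a negative interaction. In controls, the number of regulators lower at E16.5 than at E13.5 was 2 without both libraries, and 1 to 2 over the fits that left out a library. Of 24 list counts, 21 by DESeq2, 19 with the offsets, 20 with the 2 groups alone and 20 without both libraries stayed within 1.5 times the reported count, as did all 24 with DESeq2 size factors, without the filter and with the block. At E13.5, against the reported 3 higher and 2 lower paralogues, 1 was higher with the 2 groups alone and 4 were lower without both libraries. The 5 lower p63 targets became 3 with the offsets. The 6 higher Grhl targets became 3 with the offsets, and the 1 lower became 2 by DESeq2, 0 with the offsets or the 2 groups alone, and 3 without both libraries. Mesenchymal genes (1 higher, 1 lower) had 3 higher without both libraries and 2 lower by DESeq2 or with the offsets, and the 6 higher suprabasal genes became 10 by DESeq2 and 2 with the 2 groups alone. At E16.5, the 1 lower of the other regulators became 2 without both libraries, the 2 lower p63 targets 1 with the offsets, and the 3 higher mesenchymal genes 5 with the 2 groups alone. The sign turned, with no call on either side, for Grhl2 at E13.5 (-0.01) and the stage effect on Tfap2c in stabilized buds (-0.01) without both libraries, and for the stage effect on Grhl2 in stabilized buds with the offsets (0.18). It turned likewise, among list genes that did not pass, for Krt10 at E13.5 (-0.01) and Klf7 at E16.5 (-0.10) with the offsets, for Krt1 at E13.5 with the replicate block (-0.01) or without both libraries (-0.03), and for Barx2 (-0.09) and Klf6 (-0.22) at E16.5 without both libraries. Leaving out a library, it also turned for the genotype effect on Tfap2c at E13.5 (-0.20 to 0.00), the stage effects on Grhl3 in controls (-0.03 to 0.20) and Tfap2c in stabilized buds (-0.01 to 0.27), and the E13.5 ratios of Ovol1 to Ovol2 (-0.42 to 0.37) and Tfap2a to Tfap2c (-0.17 to 0.12), and for Krt1 at E13.5 (-0.16 to 0.23) and Barx2 (-0.09 to 0.25), Klf6 (-0.22 to 0.44) and Itgb4 (-0.14 to 0.02) at E16.5. The 3 ratios called at E13.5 had an adjusted exact permutation p of 0.0714 whichever library was left out, since 3 against 4 libraries cannot reach 0.05. The cause was not tested.

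Same-numbered libraries of a stage deviated from their group means with correlations of -0.091 to 0.172. The labels do not name litters, and these correlations cannot show whether such libraries shared one. With the replicate block, Klf5 at E13.5 (0.79, edgeR adjusted p = 0.081) and the Grhl2 interaction (-0.39, edgeR adjusted p = 0.0682) did not pass, nor did the paralogue Klf9 at E13.5 (0.72, edgeR adjusted p = 0.0573), and the other 48 tests of the regulators were as reported.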
